A study of Rattus norvegicus with 6 samples.

Results

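The genes described here encode the subunits of oxidative phosphorylation. They were chosen by name, as the rows of the deposited table whose gene name follows the naming of the subunits of complexes I to V, on the nuclear or the mitochondrial genome. The pattern took 99 rows with 96 names out of 22050 annotated genes. Of the 96, 13 are encoded by mitochondrial DNA and 83 by nuclear DNA. The nuclear genes fall into complex I (34), complex II (4), complex III (9), complex IV (19) and complex V (17), and the mitochondrial genes into complex I (7), complex III (1), complex IV (3) and complex V (2). The pattern is one of names: it also took Atp5if1, which encodes an inhibitor of the ATP synthase and not a subunit, the pseudogene Cox6c-ps1, and Ndufa4, which is kept with complex I by its name although its protein is found in complex IV.

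The study profiled RNA of rat subchondral bone, the bone plate under the joint cartilage, to look for genes linking cold exposure with arthritis. It is represented by 6 libraries, all from total RNA and prepared with one kit for mRNA. They are titled S10, S12 and S13, and S20, S21 and S23. They share the labelled tissue and cell type, and their labels name no temperature, treatment, strain, age or disease state, so all 6 are left without a group and nothing below compares conditions. The sources used here do not say whether each came from its own animal.

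Oxidative phosphorylation makes most of the ATP of a resting cell. Complexes I and II pass electrons from NADH and succinate to ubiquinone, complex III passes them on to cytochrome c, and complex IV passes them to oxygen, while complexes I, III and IV pump protons across the inner mitochondrial membrane. Complex V, the ATP synthase, lets the protons back and makes ATP. Every complex but complex II is built from the products of both genomes, and the nuclear subunits are imported from the cytosol. In bone, osteoclasts are known for many mitochondria, and maturing red cells lose theirs.

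The labelled tissue was checked on marker genes. The osteoblast genes Col1a1 and Bglap had medians of 202 and 439 FPKM (counted fragments divided by transcript length and library size, the unit of every level below), the osteoclast gene Ctsk 407 FPKM, and the cartilage genes Col2a1 and Acan 112 and 4.38 FPKM. Matn1, another cartilage gene, had a median of 0.01 FPKM. Of the markers listed, 9 of 9 osteoblast, 4 of 6 osteoclast and 5 of 6 cartilage genes reached a median of 1 FPKM. The medians over those genes were 173, 137 and 10.5 FPKM. Marrow lists stood higher, with medians of 898 FPKM for neutrophil and 1215 FPKM for erythroid genes. Library totals were 39990624 to 59200981 counts, and 4 globin rows took 10.4% of them in S23 and 27.6% in S10. Red cell transcripts were thus part of every library, and in bulk RNA fewer cells of a type and less RNA per cell cannot be told apart.

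The promoters of nuclear subunit genes are known for binding sites of the factors NRF1, GABP (an ETS factor) and YY1, and the core letters of each were sought in the RefSeq windows of assembly GRCr8, from 250 bases before to 50 bases after each start. Of the 77 nuclear members expressed at a median of 1 FPKM or more, 66 had a window in the table. The NRF1 core CGCATGCG, which reads the same on both strands, was in 7 of the 66 windows (10.6%), beside 1.66% of all 33469 windows and 3.87% of the 8509 windows of expressed genes. The ETS core CCGGAAGT, on either strand, was in 8 (12.1%), beside 3.81% of all and 8.80% of expressed windows. The YY1 core AAGATGGC, on either strand, was in 14 (21.2%), beside 3.17% and 6.03%. The letters TATAAA, on either strand, were in 4 (6.06%), beside 14.2% and 6.98%. At least one of the first 3 cores was in 24 of the 66 (36.4%), beside 8.07% of all and 17.1% of expressed windows. Matches of the NRF1 core and the ETS core all lay before the start, while 10 of the 14 YY1 matches began after it. A match is only a run of letters and was not tested as a binding site.

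The 100 bases before the start are given, 5′ to 3′ on the gene's strand, for the 5 members with an NRF1 core in that stretch and for Cox8a, the one member with 2 ETS cores there, both in the orientation ACTTCCGG. Capitals mark complete matches of the NRF1 or ETS core. Atp5mc2 and Atp5po come from the minus strand at chr7:135678219-135678318 and chr11:44657484-44657583, Atp5me from the plus strand at chr14:1464760-1464859, Ndufa11 from the plus strand at chr9:1637514-1637613, Uqcrc1 from the plus strand at chr8:118468123-118468222 and Cox8a from the minus strand at chr1:213833624-213833723. In Ndufa11 the runs that begin 96 and 90 bases before the start overlap.
Atp5mc2: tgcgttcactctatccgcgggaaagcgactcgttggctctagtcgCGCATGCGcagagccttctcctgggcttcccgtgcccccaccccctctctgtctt
Atp5po: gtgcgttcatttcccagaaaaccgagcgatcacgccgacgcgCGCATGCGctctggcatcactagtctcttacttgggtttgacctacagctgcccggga
Atp5me: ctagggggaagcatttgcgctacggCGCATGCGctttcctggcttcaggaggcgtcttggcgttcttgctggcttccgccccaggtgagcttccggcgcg
Ndufa11: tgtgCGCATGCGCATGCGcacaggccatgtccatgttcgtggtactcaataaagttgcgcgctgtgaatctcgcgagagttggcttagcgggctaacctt
Uqcrc1: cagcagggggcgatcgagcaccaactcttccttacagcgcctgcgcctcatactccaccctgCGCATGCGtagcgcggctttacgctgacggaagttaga
Cox8a: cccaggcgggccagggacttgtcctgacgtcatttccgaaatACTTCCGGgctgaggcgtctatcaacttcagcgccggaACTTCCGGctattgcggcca

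The core began 55 bases before the start in Atp5mc2, 58 in Atp5po, 75 in Atp5me and 38 in Uqcrc1. These members encode, in turn, a form of the membrane ring subunit c, the stalk subunit OSCP, the small membrane subunit e and a core protein of complex III. Ndufa11 encodes an accessory subunit of complex I, and Cox8a a small subunit of complex IV. Among these 6 the median level was 257 FPKM for Atp5mc2, 155 for Atp5po, 72.5 for Atp5me, 115 for Ndufa11, 112 for Uqcrc1 and 213 for Cox8a.

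Of the 96 genes, 90 reached a median of 1 FPKM, here called expressed, and 6 did not, all of them nuclear genes of complex IV. The 13 mitochondrial genes had a median of 1243 FPKM over the genes, and the 77 expressed nuclear genes 95.9 FPKM. Nuclear genes of complexes IV and V stood highest, with medians over the genes of 196 and 185 FPKM, followed by complex III at 99.9, complex I at 65.9 and complex II at 59.6 FPKM. Within a complex the subunits are present in fixed numbers, but their transcripts were not level. From the lowest to the highest median the span was 1.74-fold in complex II, 3.10-fold in complex III, 6.84-fold in complex I and 8.21-fold in complex V. In complex IV 11 of the expressed nuclear genes lay between 113 FPKM for Cox7a2l and 596 FPKM for Cox4i1, and Cox4i2 and Cox6b2 had 2.73 and 2.21 FPKM.

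**Figure D1:**
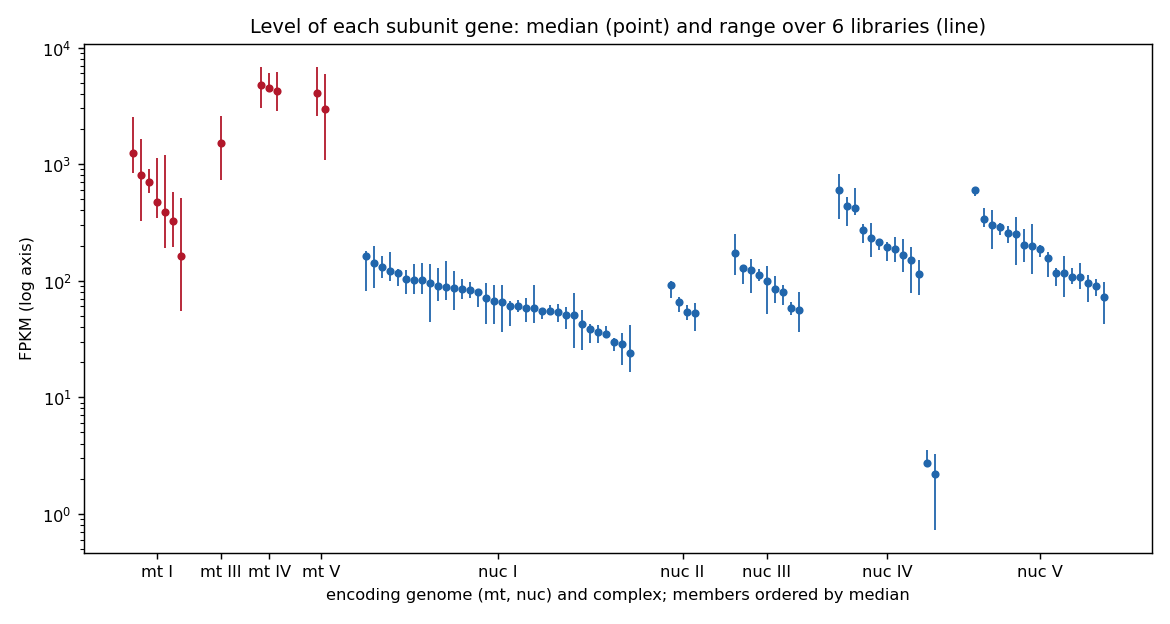
FPKM of the 90 expressed subunit genes on a log axis, by encoding genome (mt, mitochondrial; nuc, nuclear) and complex; points are medians over the 6 libraries and lines run from the lowest to the highest library. The mitochondrial genes of complexes IV and V stand highest, and Cox4i2 and Cox6b2 lie far below the other nuclear genes of complex IV.

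Among the mitochondrial genes those of complexes IV and V were the most abundant. Mt-co1 (ENSRNOG00000034234), which encodes the catalytic subunit of cytochrome c oxidase, had 6780 FPKM in S20, 5140 in S12, 5037 in S23, 4552 in S13, 4388 in S21 and 3021 in S10. Mt-co2, which receives the electrons of cytochrome c, had 6003 FPKM in S20, 4809 in S21, 4589 in S23, 4419 in S13, 4416 in S10 and 4403 in S12. Mt-co3, the remaining mitochondrial subunit of that enzyme, ranged from 2859 FPKM in S10 to 6204 in S20. S20 was highest for each of the 3, and S10 was clearly low for Mt-co1 and Mt-co3 but level with S12 and S13 for Mt-co2. Mt-atp6, a part of the proton path of ATP synthase, had a median of 4081 FPKM and ranged from 2572 in S10 to 6794 in S20, 2.64-fold. Mt-atp8, its short neighbour, had a median of 2969 FPKM and ranged 5.47-fold, from 1090 in S10 to 5965 in S20. Mt-atp8 overlaps Mt-atp6, and Mt-nd4l overlaps Mt-nd4, so how shared reads were counted bears on these values, and the sources used here do not say it.

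The mitochondrial genes of complexes I and III had lower levels and, apart from Mt-nd3, wider ranges than those of complex IV. Mt-cyb, the cytochrome b that carries both quinone sites of complex III, had 2596 FPKM in S20, 1939 in S12, 1639 in S23, 1424 in S21, 1401 in S13 and 724 in S10. Mt-nd5 (ENSRNOG00000029971), a proton-pumping subunit of complex I, had 510 FPKM in S20, 259 in S12, 181 in S23, 145 in S13, 114 in S21 and 55.0 in S10. It had the widest range of the 90 members with a median of at least 1 FPKM, 9.27-fold, with S20 well above and S10 well below the other 4 libraries. Mt-nd4l ranged 6.35-fold, from 189 to 1201 FPKM, and Mt-nd2 4.98-fold, from 327 to 1630 FPKM. Mt-nd4 ranged 3.23-fold around a median of 473 FPKM, and Mt-nd1 3.01-fold around 1243 FPKM. Mt-nd3 ranged only 1.60-fold, from 567 FPKM in S12 to 905 in S20. Mt-nd6, the only subunit gene read from the light strand, ranged 2.99-fold, from 194 FPKM in S10 to 580 in S20; without a stated strand setting its reads cannot be told apart from those of the opposite strand. All members of the mitochondrial genome are cut from long shared precursors, yet their ranges ran from 1.36-fold for Mt-co2 to 9.27-fold for Mt-nd5.

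**Figure D2:**
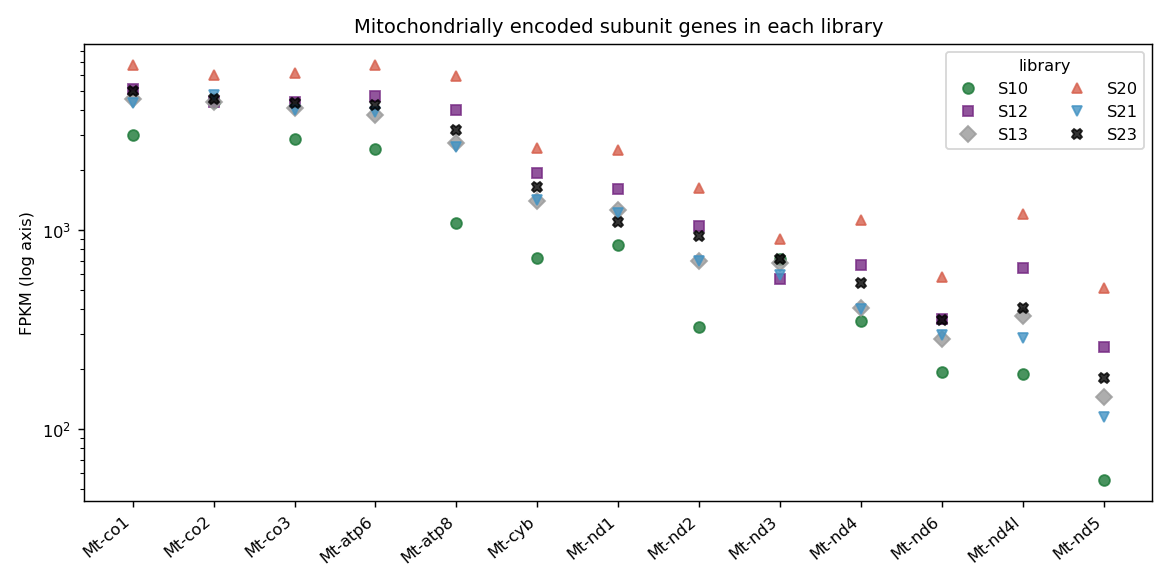
FPKM of the 13 mitochondrially encoded subunit genes on a log axis, with a marker for each of the 6 libraries. S20 is the highest marker for each gene, S10 is the lowest for 11 genes, and for Mt-co2 and Mt-nd3 S10 lies among the others.

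Each of the 13 was highest in S20, beside 28.8% of all expressed genes, and 11 were lowest in S10, beside 60.1%. A low value in S10 was thus the usual one in these FPKM values, whereas a highest value in S20 was not. A range of at least 1 on the log2(FPKM + 1) scale was found for 11 of the 13, beside 36.6% of all expressed genes. Under TMM or median-ratio factors 8 of the 13 had such a range. Under scaling by TMM or median-ratio factors, 11 of the 13 stayed highest in S20 and 9 lowest in S10. Under these factors Mt-co2 and Mt-nd3 were highest in S10, Mt-nd1 was lowest in S23 and Mt-nd4 in S21. The shares of all expressed genes for highest and lowest libraries and for ranges, here and below, are those of the deposited FPKM. They need not carry over to other scalings, for which none was taken. In S10 the median deviation of all expressed genes was -0.31 as deposited and -0.002 under TMM factors.

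Within the mitochondrial counts the make-up also shifted. Mt-co1 took 29.2% to 33.3% of the counts of the 13 genes in every library. Mt-co2 took 20.3% in S10 and 11.5% in S20, with 11.9% to 15.6% in the others. Mt-nd5 took 0.677% in S10 and 2.60% in S20, with 0.99% to 1.88% in the others. S10 thus had the largest share of Mt-co2 and the smallest of Mt-nd5, and S20 the reverse, a contrast that does not depend on how libraries are scaled to each other.

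The 13 genes together took 3.92% of all counts in S20, 2.72% in S12, 2.61% in S23, 2.32% in S13, 2.31% in S21 and 1.62% in S10. The 83 nuclear genes took 0.999% in S10, 0.957% in S23, 0.903% in S21, 0.889% in S13, 0.744% in S12 and 0.708% in S20. Exact 95% binomial intervals (Clopper-Pearson), which cover counting error only, were 1.61% to 1.62% for the mitochondrial share in S10 and 3.92% to 3.93% in S20. The order of the libraries was nearly reversed. S20 and S12 had the largest mitochondrial and the smallest nuclear shares, and S10 the smallest mitochondrial and the largest nuclear share. Mitochondrial counts were 5.54 times the nuclear counts in S20, 3.66 in S12, 2.73 in S23, 2.61 in S13, 2.56 in S21 and 1.62 in S10.

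A score was computed for each group in each library, as the mean deviation of its expressed genes, on the log2(FPKM + 1) scale, from their own medians over all libraries. The mitochondrial score was 0.91 in S20, 0.28 in S12, 0.08 in S23, -0.10 in S13, -0.17 in S21 and -0.77 in S10. The nuclear score was 0.23 in S10, 0.11 in S23, 0.03 in S13, 0.00 in S21, -0.28 in S12 and -0.40 in S20, a range of 0.63. The mitochondrial range was 1.68 as deposited. Under TMM factors it was 1.13, and the nuclear range was 1.16. The mitochondrial score minus the nuclear score, in which a common scaling of a library nearly cancels, was 1.30 in S20, 0.56 in S12, -0.03 in S23, -0.13 in S13, -0.17 in S21 and -1.0 in S10. Its range of 2.30 lay between 2.12 and 2.32 under the other scalings, pseudocount, filters, summary and length correction tried. It was 1.47 without S10 and 1.56 without S20, and the mitochondrial range of 1.68 became 1.07 without S10 and 1.05 without S20. S13, S21 and S23 lay close together, so the spread of this difference came from S10 on the low side and from S12 and S20 on the high side.

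The median of all expressed genes itself lay at -0.31 in S10, 0.14 in S12 and 0.06 in S20 on this scale. Relative to it the nuclear score was 0.54 in S10, -0.42 in S12 and -0.46 in S20, and the mitochondrial score was -0.45, 0.14 and 0.84. With FPKM brought to a common sum, the nuclear score was highest in S23 at 0.25, with S10 at 0.02. The low nuclear scores of S12 and S20 kept their sign under each of the scalings and the length correction, and that of S10 stayed above 0.

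**Figure D3:**
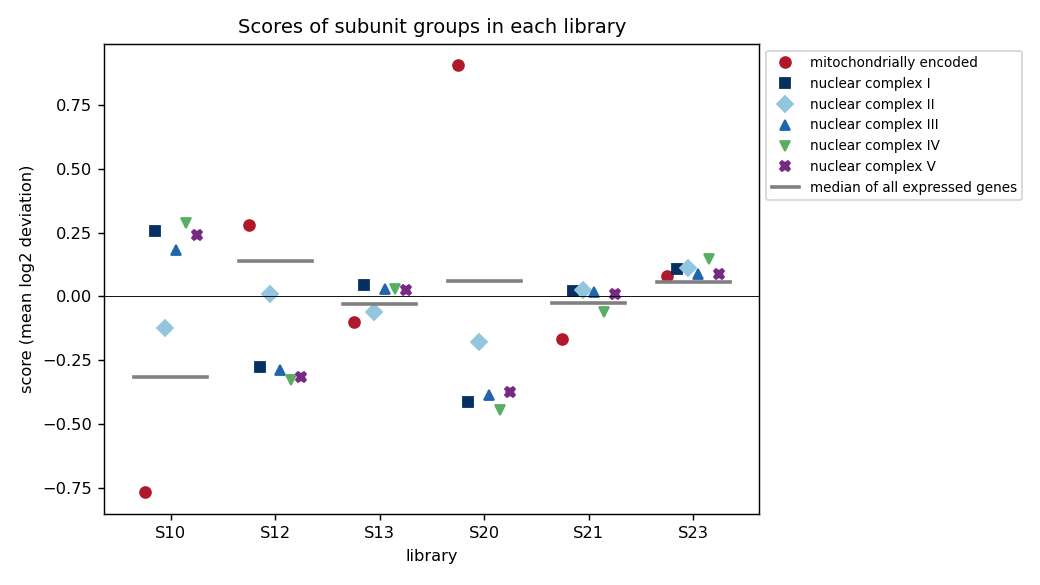
Scores (mean log2 deviation of the genes from their medians over all libraries) of the mitochondrially encoded genes and of the nuclear genes of complexes I to V in each library, with the median of all expressed genes as a grey bar. In S12 and S20 the mitochondrial score lies above and the nuclear scores of complexes I to V lie below the bar, and in S10 the order is turned.

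Nuclear genes were highest in S10 in 52 of 77 cases, beside 11.0% of all expressed genes, and lowest in S20 in 48, beside 17.1%. The first count depended on the scaling: it was 72 under TMM factors but 18 with FPKM brought to a common sum, where 49 of the 77 were highest in S23. With a common sum that left out the globin rows, it was 52 again. The count lowest in S20 was 46, 37 and 31 in turn. No share of all expressed genes was taken under these scalings. The counts by complex below, and the ranges and the highest and lowest libraries of single genes, are those of the deposited FPKM unless another scaling is named, and under the common sum S23 was the most frequent highest library in each complex. As deposited 7 were lowest in S10, where 60.1% of all expressed genes were (1 under TMM factors and 15 with a common FPKM sum), and 1 was highest in S20, where 28.8% were. A range of at least 1 was found for 23 of the 77 nuclear genes, beside 36.6%. Most subunit transcripts are short, and short transcripts as a class behaved in a like way: among the 1534 expressed genes under 1000 bases, 36.4% were highest in S10, 42.8% were lowest in S20 and 9.91% were highest in S20. Of the 52 nuclear members under 1000 bases, 41 were highest in S10, 33 lowest in S20 and 0 highest in S20. The part of transcript length in these counts is set out after the complexes.

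In complex I, the entry point for NADH, 26 of 34 nuclear genes were highest in S10 and 25 lowest in S20. Over all expressed genes, 11.0% were highest in S10 and 17.1% lowest in S20. Ndufb8, an accessory subunit of the membrane arm, had 178 FPKM in S10, 170 in S13, 164 in S23, 162 in S21, 102 in S12 and 81.8 in S20, the highest median of the 34. Ndufb9, another of the membrane arm, had a median of 142 FPKM and Ndufa4 130 FPKM, with the same 2 libraries, S12 and S20, at the low end. Ndufa2, a small accessory subunit, ranged from 26.3 FPKM in S20 to 78.1 in S10. Ndufc1 had the lowest median, 23.9 FPKM, and ranged from 16.4 in S20 to 41.5 in S10.

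Members of complex I did not all follow this order. Ndufa1 (ENSRNOG00000040005), a small membrane subunit, had the largest nuclear range as deposited, 1.61 (under TMM factors Ndufa2 had 2.07), with 138 FPKM in S13, 125 in S23, 102 in S21, 88.3 in S12, 58.2 in S10 and 44.3 in S20. It was highest in S13, and S10 and S20 were both low. Ndufs1, the largest iron-sulfur subunit, turned the usual order around, with 35.2 FPKM in S20, 33.2 in S12, 30.0 in S23, 27.6 in S21, 26.7 in S13 and 19.0 in S10. S10 was the lowest and S20 the highest library for it, as for the mitochondrial genes. Ndufv1, which binds NADH, was lowest in S10 too as deposited, at 50.9 FPKM against 51.7 in S20. The 7 nuclear core subunits, which carry the flavin and iron-sulfur centres and are conserved in bacteria, had a median level of 55.0 FPKM and a median range of 0.52, and 5 of 7 were higher in S10 than in S20. The 27 other nuclear genes had a median level of 79.4 FPKM and a median range of 0.86, and all 27 were higher in S10. The median transcript length was 1162 bases for the core genes and 630 bases for the others, so role and length cannot be told apart here.

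Complex II, succinate dehydrogenase, is the one complex with no mitochondrial gene, and its score varied least as deposited, though not with a common FPKM sum, where its range was 0.58 beside 0.45 to 0.58 for the others, nor with that sum taken without globin rows, where it was 0.32 beside 0.30 for complex III. Sdha, the flavoprotein that oxidizes succinate, had 64.4 FPKM in S12, 58.9 in S20, 53.5 in S21, 51.8 in S23, 45.0 in S13 and 36.9 in S10. Sdhb, its iron-sulfur partner, had 72.7 FPKM in S23, 70.9 in S10, 65.1 in S21, 64.8 in S13, 59.5 in S12 and 53.4 in S20. The membrane anchors Sdhc and Sdhd had medians of 54.2 and 91.8 FPKM and were lowest in S20 and highest in S23, like Sdhb. Sdha was lowest in S10 instead. Under TMM factors Sdhb, Sdhc and Sdhd were highest in S10, and Sdha was lowest in S13. The score of complex II had a range of 0.29, highest in S23, against 0.57 to 0.73 for the other 4 complexes. It was -0.12 in S10 as deposited but 0.23 under TMM factors, so no side of 0 is given for complex II in S10. Relative to the median of all expressed genes it was 0.19 in S10, -0.13 in S12 and -0.24 in S20. These are the same sides as for the other nuclear complexes.

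In complex III, 6 of 9 nuclear genes were highest in S10 and 6 lowest in S20, beside 11.0% and 17.1% of all expressed genes. Uqcrh, the hinge protein by cytochrome c1, had the highest median, 173 FPKM, with 250 in S10, 184 in S23, 181 in S13, 164 in S21, 125 in S12 and 111 in S20. Uqcr10, a small membrane subunit, had the largest range as deposited, from 51.8 FPKM in S20 to 134 in S10. Uqcrfs1, the Rieske iron-sulfur protein that hands electrons to cytochrome c1, had a median of 129 FPKM and Uqcr11 125 FPKM. Cyc1, cytochrome c1 itself, had 62.1 FPKM in S10 and 91.6 in S21, and Uqcrc2, a core protein, 50.5 in S10 and 65.3 in S23. As deposited both were lowest in S10, but under TMM or median-ratio factors Cyc1 was lowest in S20 and Uqcrc2 highest in S10. Uqcrq had the lowest median, 55.8 FPKM, and ranged from 36.5 in S20 to 79.1 in S10.

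In complex IV, 8 of the 13 expressed nuclear genes were highest in S10 and the other 5 in S23. The low end was split between S12 and S20, with 6 each, and S21 with 1. Over all expressed genes, 11.0% were highest in S10 and 17.1% lowest in S20. Cox4i1 (ENSRNOG00000017817), which binds ATP and ADP as regulators of the enzyme, had 822 FPKM in S10, 640 in S23, 620 in S13, 572 in S21, 414 in S12 and 337 in S20. Cox5a had 523 FPKM in S23, 493 in S10, 465 in S21, 411 in S13, 294 in S20 and 293 in S12, and Cox6a1 had 619 FPKM in S10, 513 in S21, 441 in S13, 398 in S23, 367 in S12 and 366 in S20. S12 and S20 were the low libraries for each of the 3. Cox7a2 ranged from 77.9 FPKM in S20 to 196 in S23, the largest range of the 13 on the log2(FPKM + 1) scale as deposited, 1.32, whereas under TMM factors Cox4i1 had 1.83 and Cox7a2 1.77. As deposited, the nuclear score of complex IV had the widest range of the 5 complexes, 0.73.

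Complex IV has alternative forms for several positions, and the forms known from most tissues made up nearly all transcripts here. Cox4i2, the form induced at low oxygen, made up 0.422% to 0.817% of the FPKM of Cox4i1 and Cox4i2, at 129 to 184 counts. Cox6b2, the testis form, made up 0.358% to 1.63% of its position. Cox7a1, the form of heart and muscle, had 3 to 11 counts against 1662 to 4835 of Cox7a2. Cox7b2, Cox8b and Cox8c had 0 counts in every library, which allows up to 3 counts in each, as had the pseudogene Cox6c-ps1. These are low or absent readings against Cox7b and Cox8a, with at least 3134 and 4358 counts.

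The muscle form Cox6a2 had 2.29 FPKM in S12, 1.20 in S13, 1.12 in S21, 0.846 in S10, 0.184 in S20 and 0.152 in S23, from 4 to 52 counts. It made up 0.038% to 0.621% of the COX6A position. The libraries fell in the order S12, S13, S21, S10, S20, S23. Skeletal muscle markers followed the same order apart from the last pair: the score of the 7 expressed of 9 markers with a row was 1.94 in S12, 0.82 in S13, 0.46 in S21, -0.44 in S10, -1.44 in S20 and -1.33 in S23. Ckm, muscle creatine kinase, went from 0.21 FPKM in S23 to 28.1 in S12, and Myl1, a myosin light chain, was listed at 0 in S20 and S23. The part of muscle RNA in the level of Cox6a2 was not tested.

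In complex V, 12 of 17 genes were highest in S10, and 8 were lowest in S20 and 7 in S12. Over all expressed genes, 11.0% were highest in S10 and 17.1% lowest in S20. Atp5f1b (ENSRNOG00000002840), the catalytic beta subunit, had 638 FPKM in S21, 611 in S13, 598 in S23, 592 in S10, 571 in S12 and 537 in S20. As deposited its range, 0.25, was the smallest of the 77 expressed nuclear genes, but under TMM factors it was 0.68, where Sdha had 0.24. Atp5f1a, the alpha subunit of the same ring, ranged from 248 FPKM in S10 to 311 in S23, though under TMM or median-ratio factors it was highest in S10 and lowest in S12, and Atp5f1c, the central shaft, ranged from 93.0 in S10 to 129 in S23. Among the 17 nuclear genes of the enzyme, Atp5f1e and Atp5mg had the widest ranges as deposited, 1.43 and 1.34. Atp5f1e, the epsilon subunit at the foot of the shaft, had 307 FPKM in S10, 240 in S23, 217 in S13, 182 in S21, 137 in S12 and 114 in S20, and Atp5mg, the membrane subunit g, 349 FPKM in S10, 295 in S23, 278 in S13, 226 in S21, 176 in S12 and 137 in S20. For both, S10 was the highest and S20 the lowest library, and S12 was next to the lowest.

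Atp5mf, the membrane subunit f, had a median of 299 FPKM, and Atp5me and Atp5pf, at the low end, 72.5 and 90.6 FPKM. The inhibitor Atp5if1, which blocks the enzyme when it would run backwards, had a median of 340 FPKM, more than that of any other nuclear gene of complex V but Atp5f1b, and ranged from 286 in S12 to 418 in S10. The 3 genes Atp5mc1, Atp5mc2 and Atp5mc3 encode one mature subunit c with different import signals. They made up a median of 19.8%, 46.0% and 34.6% of their summed FPKM. The shares ranged from 18.5% to 22.7% for Atp5mc1, from 45.0% to 48.6% for Atp5mc2 and from 30.8% to 35.3% for Atp5mc3.

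**Figure D4:**
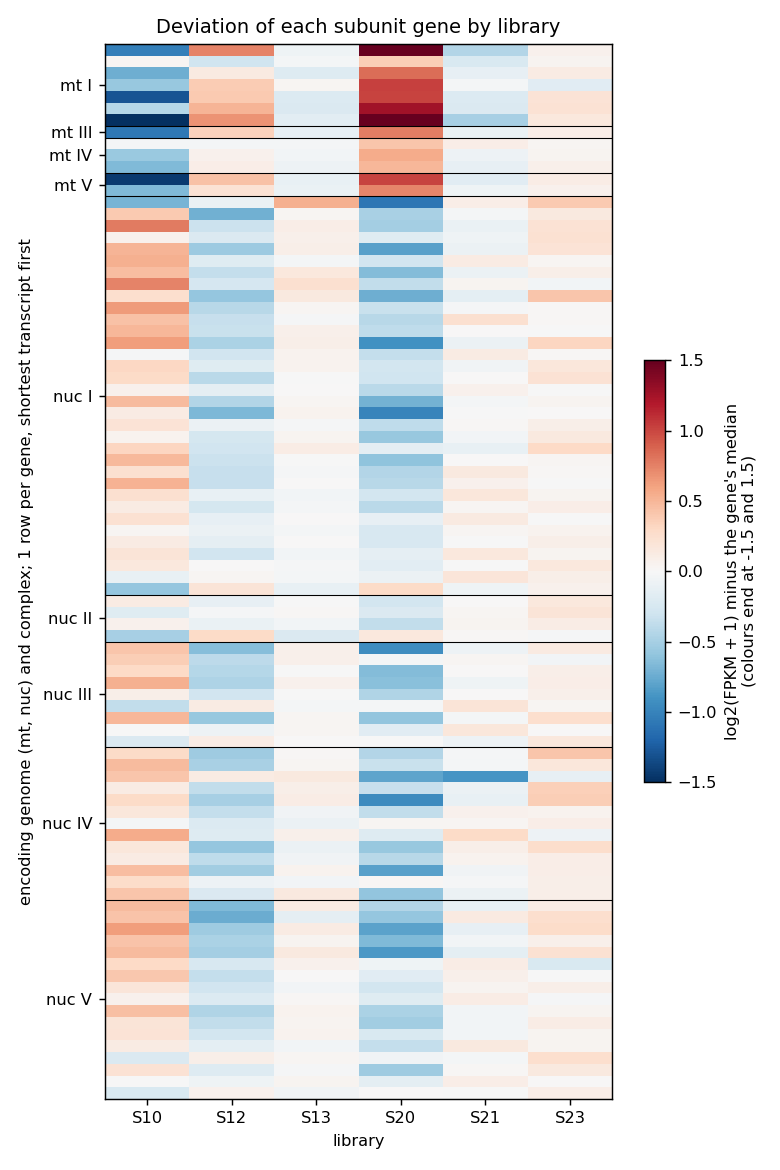
Deviation of log2(FPKM + 1) from each gene's median for the 90 expressed subunit genes in each library, by genome and complex and, within a complex, from the shortest to the longest transcript. The columns of S10 and S20 have opposite colours in the mitochondrial and most nuclear genes, and the last rows of complexes I, II and V, the long transcripts of Ndufs1, Sdha and Atp5f1a, depart from the short ones.

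The 7 nuclear genes that were lowest in S10 as deposited, Ndufs1, Ndufv1, Sdha, Cyc1, Uqcrc2, Atp5f1a and Atp5f1c, had long transcripts, of 1305 to 2703 bases against a median of 746 bases for the 77. Of these 7, Ndufs1 alone stayed lowest in S10 under TMM or median-ratio factors, where Ndufv1, Uqcrc2 and Atp5f1a were highest there. Transcript length was taken as the length implied by counts and FPKM. Across genes, Spearman's rho between length and the log2 ratio of S10 to S20 was -0.58 over the 77 nuclear members and -0.59 over 11596 expressed genes; genes are not independent replicates, and all points share the same 2 libraries. The median ratio of S10 to S20 was 1.51 for the nuclear members, 0.332 for the 13 mitochondrial genes and 0.699 for all expressed genes. By length, the median ratio of the nuclear members was 2.03 under 500 bases (11 genes), 1.76 from 500 to 700 bases (27), 1.63 from 700 to 1000 (14), 1.33 from 1000 to 1500 (15) and 1.04 from 1500 bases on (10). For all expressed genes of the same classes it was 1.20, 1.55, 1.39, 1.11 and 0.611. The median ratio of the nuclear members lay above that of all expressed genes in each class, by the widest margin in the shortest and the longest. S10 and S20 were the ends of both the nuclear and the mitochondrial score as deposited. The choice of this pair thus partly sets these ratios, which are no separate support for the scores.

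After each library's median deviation in 20 length bins had been removed, the nuclear score still was highest in S10 at 0.21, and it was -0.20 in S12 and -0.19 in S20. Its range became 0.40. Of the 77, 49 were then highest in S10 and 36 lowest in S20, and 12 had a range of at least 1. The shares of all expressed genes were not taken after this correction. The mitochondrial genes stood apart from the length trend: rho was -0.13 over the 13, none was higher in S10 than in S20, and after the length correction all 13 were highest in S20, with a range of the score of 1.87.

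**Figure D5:**
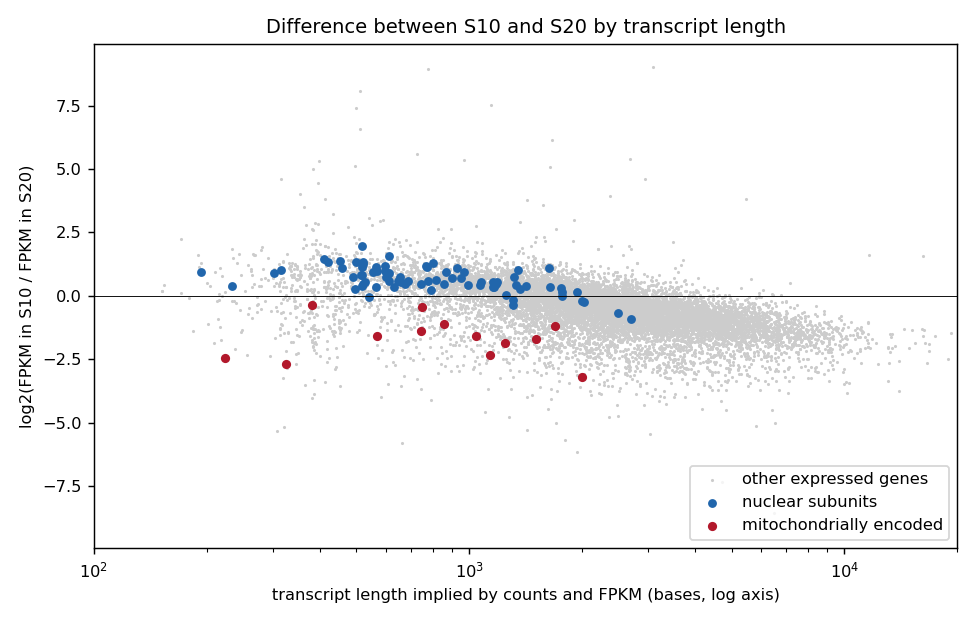
Log2 ratio of FPKM in S10 to FPKM in S20 against implied transcript length (log axis) for 11596 expressed genes, with the 77 nuclear and 13 mitochondrially encoded subunit genes in colour. Nuclear subunits run along the upper part of the falling cloud, and the mitochondrial genes lie below 0 at every length.

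The rest of the pathway was taken from lists of names. All 42 assembly factors with a row were expressed, at a median of 8.06 FPKM, far below the subunits they help to build. The highest were Cox14 (118 FPKM) and Cox17 (114 FPKM), a copper chaperone for complex IV, and Coa3 (45.0 FPKM) and Uqcc3 (42.2 FPKM). Of the 42, 18 were highest in S10 and 17 lowest in S20, beside 11.0% and 17.1% of all expressed genes. The score had a range of 0.25, or 0.65 under TMM factors. With a common FPKM sum 4 were highest in S10. Cytochrome c, the carriers and the porins that serve the complexes had a score range of 0.19 as deposited and 0.77 under TMM factors. In that list, after Atp5if1, the phosphate carrier Slc25a3 had a median of 199.8 FPKM and a span from 193 to 205, the ADP/ATP carrier Slc25a5 202 FPKM and the porin Vdac3 113 FPKM. Slc25a31, the testis carrier, was listed at 0. A further list held 5 genes linked to complexes I and IV with names outside the pattern, not all of them subunits. Among them Higd2a was the highest at 35.5 FPKM, followed by Dmac1 (16.7), Ndufab1 (13.3) and Higd1a (8.98). Of these 5, 3 were highest in S10 as deposited, beside 11.0% of all expressed genes, and 0 with a common FPKM sum.

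Genes that maintain and read mitochondrial DNA did not show the spread of the mitochondrial transcripts. Tfam, which packs the DNA and starts transcription, had 20.4 FPKM in S23, 20.9 in S21, 21.2 in S20, 22.6 in both S10 and S13, and 23.1 in S12. The DNA-binding protein Ssbp1 had a median of 22.0 FPKM and ranged from 19.1 to 23.6. The protease Lonp1 had a median of 30.8 FPKM and the polymerase Polg 10.9 FPKM, both lowest in S10 as deposited, and Mterf2 0.78 FPKM. The score of the 16 expressed genes had a range of 0.21, beside 1.68 for the mitochondrial subunits. As deposited it was highest in S20 and lowest in S10, but under TMM factors it was highest in S10, with a range of 0.31. The mitochondrial subunits had a range of 1.13 under these factors.

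Of 11 nuclear regulators, 7 were expressed, and all 7 were lowest in S10, beside 60.1% of all expressed genes. Under TMM factors 3 of the 7 were, and the score stayed lowest in S10, at -0.16. Nrf1, whose core letters were sought above, had 23.6 FPKM in S12, 23.1 in S20, 21.5 in S21, 19.1 in S23, 19.0 in S13 and 15.2 in S10. Yy1 ranged from 15.2 FPKM in S10 to 35.1 in S12, Myc from 13.8 in S10 to 26.8 in S20, and Esrra from 11.5 in S10 to 20.1 in S23. Gabpa, the DNA-binding part of GABP, ranged from 5.95 in S10 to 12.9 in S20. The coactivators Ppargc1a and Ppargc1b had medians of 0.05 and 0.30 FPKM, and Esrrg and Ppara 0.01 and 0.16 FPKM. The median transcript length of the 7 was 2727 bases, against 746 for the nuclear subunits, and after the length correction 1 of the 7 was lowest in S10.

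The citric acid cycle delivers the electrons. Its 16 genes had a median of 37.7 FPKM, and as deposited 9 of 16 were lowest in S10 and 1 was highest there, beside 60.1% and 11.0% of all expressed genes. Under TMM factors the counts were 2 and 6, and with a common FPKM sum 15 and 0. Mdh2 led with a median of 96.4 FPKM, followed by Idh2 (70.4), the citrate synthase Cs (60.5) and Idh3g (56.4). Cs ranged from 38.9 FPKM in S10 to 76.6 in S20. Relative to the median of all expressed genes the score of the cycle was level, with a range of 0.07, where that of the nuclear subunits was 1.0 and that of the mitochondrial ones 1.30. Under TMM factors the score of the cycle had a range of 0.21, from -0.10 in S12 to 0.12 in S10. The median length of the cycle genes was 2355 bases.

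Ribosomal protein genes are also short, with median lengths of 1090 bases for the mitochondrial and 636 for the cytosolic ribosome. Of 75 mitochondrial ribosomal protein genes, led by Mrpl33 (149.6 FPKM), Mrpl17 (92.4), Mrps21 (77.0) and Mrpl54 (76.1), 43 were highest in S10 and 42 lowest in S20; with a common FPKM sum these counts were 11 and 28. Of the cytosolic ones 72 were expressed, led by Rpl13 (1548 FPKM), Rps2 (1372), Rpl41 (1341) and Rps3a (1320). Of these 72, 58 were highest in S10 and 56 lowest in S20, and 25 and 52 with a common sum. As deposited, the shares over all expressed genes were 11.0% highest in S10 and 17.1% lowest in S20. Over those under 1000 bases they were 36.4% and 42.8%. The score of the cytosolic ones was 0.40 in S10, 0.13 in S13, 0.10 in S23, -0.09 in S21, -0.35 in S12 and -0.53 in S20. These are the same 3 libraries at the ends as for the nuclear subunits, whose score had a smaller range, 0.63 against 0.92.

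Markers of marrow cells varied between the libraries as well. The score of 9 neutrophil genes was -0.61 in S20 and -0.37 in S12, the low libraries of the nuclear subunits, and 0.83 in S23. In S10 it was -0.08 as deposited and 0.21 under TMM factors. That of 9 erythroid genes was lowest in S23 (-0.79) and highest in S20 (0.27), or in S10 under TMM factors (0.55). That of 10 proliferation genes was highest in S20 (0.48) and lowest in S10 (-0.43), the same ends as for the mitochondrial subunits, though under TMM factors it was lowest in S23. Mki67 went from 23.3 FPKM in S10 to 111 in S20. The adipocyte score went from -1.14 in S23 to 1.66 in S12. The part of cell make-up in the mitochondrial and nuclear values was not tested.

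Copies limit a few of these values. Cox6b1, Ndufv3 and Uqcrb each had 2 rows, of which the higher was used. The other row had a median of 32.2 FPKM for Cox6b1, against 196 for the row used, 17.4 against 85.0 for Uqcrb and 0.955 against 29.5 for Ndufv3. Small subunit genes have many processed copies in the nuclear genome, as has mitochondrial DNA, and the sources used here do not say how reads that match several copies were assigned.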

How the data were processed

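RNA of rat subchondral bone was measured by RNA-seq in 6 libraries, of which the labels assign none to a group. The authors deposited raw counts, in whole numbers for each gene, beside FPKM values of their own making, named so per the file headers; both were used for all libraries, and FPKM carried the levels. Aligner, counting tool, strand handling and filters: not given in the sources used here. The submitters' processing notes name the mouse builds GRCm38 and mm10, whereas row IDs are of rat, so no coordinates were taken from the values. Of 30610 rows, 30600 held values and 22050 were annotated genes, and 11625 of these, with a median of 1 FPKM or more, were called expressed.

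Differences between libraries were taken on log2(FPKM + 1), which understates those of low genes. Without groups no test was made, and values describe 6 libraries. Length was implied by counts and FPKM with summed counts as the library size, and is approximate in bases. Total counts of 39990624 to 59200981 set the precision; shares have exact 95% intervals (Clopper-Pearson), and a count of 0 allows up to 3 counts. Alternatives were TMM (edgeR 4.0.16, R 4.3.3) and median-ratio factors, FPKM at a common sum with and without globin rows, a pseudocount of 0.1, a minimum of 5 FPKM or none, median scores, removal of the median of 20 length bins, and leaving out each library. Counts of highest and lowest libraries at a common sum were added after seeing the data. Shares of all expressed genes beside such counts were taken on the deposited FPKM alone. On simulated counts the scores were tested only for well-expressed genes changed in a single library, as the difference of that library from the others. Changes in lower genes were not tested. The range over libraries was checked there only for the length correction. Python 3.11.15, numpy 2.4.6, pandas 2.3.3 and scipy 1.17.1 were used.

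Members and lists were chosen with earlier results of these data known. Named are all mitochondrial genes; per nuclear complex the 3 highest and 2 lowest medians and the 2 widest ranges; all alternative forms; and of other lists the 4 highest medians and those under 1 FPKM. Chosen after their values were seen were Ndufv1, Cyc1, Atp5f1a, Atp5f1c, Cox7a2l, Gabpa, the marker genes named, and the genes named for promoter letters. Promoter windows are those of RefSeq for GRCr8, matched by symbol or gene ID.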

Additional observations from a re-analysis of the deposited data

How the results depend on the processing

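No library has a group, so ranges describe these 6 libraries, and depth limits only genes with few counts, such as Cox6a2 and Cox7a1. The choice of scaling bears most on the nuclear genes. Under TMM factors the range of the score was 1.16 for the nuclear genes, 1.20, 0.59, 1.11, 1.25 and 1.16 for complexes I to V, and 55 nuclear genes had a range of at least 1. Under median-ratio factors these were 1.17, 1.21, 0.60, 1.12, 1.26, 1.17 and 55. The mitochondrial range was 1.13 under TMM and 1.12 under median-ratio factors. Under each, 8 mitochondrial genes had a range of at least 1. With a common FPKM sum, complex II had 0.58, 18 nuclear genes were highest in S10 and 12 had a range of at least 1. With a common sum without globin rows, the range was 0.36 for the nuclear genes and 0.41, 0.30 and 0.37 for complexes I, III and V, 31 nuclear genes were lowest in S20 and 10 had a range of at least 1. Length correction gave 0.42 for complex I, 0.15 for complex II and 12 nuclear genes with a range of at least 1. Leaving out each library gave 1.05 to 1.68 for the mitochondrial range and 1.47 to 2.30 for the mitochondrial minus nuclear score. Without globin rows the nuclear genes took a median of 1.09% of counts. Of 165 values under alternatives, 129 stayed within the spread or 1.5 times of the value given and 36 moved. The cause was not tested. Many of the 129 could not move, so their number does not measure stability. Leaving out a library that is neither highest nor lowest cannot change a range. The filters on low genes left the mitochondrial range and those of complexes I, II, III and V as they were. The 165 values are ranges, counts and shares, which have no sign, but directions did turn. The complex II score in S10 was -0.12 as deposited and 0.23 under TMM factors. The nuclear score was highest in S10 as deposited and in S23 with a common FPKM sum. No paired analysis was possible because no library has a group.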
